A study of Mus musculus with 2 samples.

Results

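Nuclear receptors are transcription factors, most of which are switched on or off by small fat-soluble ligands. The 32 genes described here are the mouse nuclear receptor genes of a fixed list that leaves out the steroid receptors of the adrenal program and the clock receptors, chosen by gene symbol from the 55536 genes of the annotation. They hold the receptors for retinoids, thyroid hormone, vitamin D, fatty acids, oxysterols, bile acids and foreign compounds, together with orphan receptors, the estrogen-related receptors, Esr2 and Pgr. Total RNA was measured in adrenal glands of male B6CASTF1/J mice, an F1 hybrid strain, at 36 days of age, in 1 group of 2 libraries made from 300 ng of RNA each. The libraries carry biological replicate numbers 1 and 2. The labels conflict on whether they came from the same animal. Every p-value below sets 2 libraries against counting error alone and holds no estimate of technical or biological spread. A low p-value may therefore reflect a technical difference between the libraries. With no second condition, the description covers levels, shares within receptor groups, transcripts, and the ratio of replicate 1 over replicate 2.

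As background, a nuclear receptor binds DNA through zinc fingers and its ligand through a separate pocket, and without ligand many members hold corepressors on their target genes. Retinoid X receptors (RXR) are the shared partner: receptors for retinoic acid, thyroid hormone, vitamin D, fatty acids, oxysterols and bile acids bind DNA as heterodimers with RXR, usually on repeats of the core motif AGGTCA. In the adrenal gland, oxysterol and bile acid receptors are known for their link to cholesterol, the substrate of steroid hormones, and fatty acid receptors for lipid burning and storage in the fat around the gland.

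Replicate 1 held 35813366 expected counts (read counts with shared reads split by estimate) and replicate 2 held 30628771. The 32 genes took 19895 and 17810 of these. TPM is abundance per transcript length, scaled to a fixed sum in each library. Summed TPM of cortex markers was 14600 and 8130, and that of medulla markers 1430 and 1680, so both parts of the gland were present in each library. Markers of neighbouring tissues were not even between the libraries: the summed TPM of pancreatic acinar markers was 0.20 in replicate 1 and 6600 in replicate 2, that of islet markers 0.05 and 87.0, that of hepatocyte markers 13.7 and 116, and that of brown fat markers 279 and 492. White and brown fat share adipocyte markers, which summed to 1920 and 1650 TPM. The 7SL RNA genes took 32.5% and 48.9% of all TPM, which lowers the deposited TPM of every other gene in replicate 2. Deposited TPM therefore serve here for the order of genes within a library, and counts scaled by TMM (trimmed mean of M-values, which sets the bulk of genes level) for ratios between libraries. In whole tissue, fewer cells of a type and less RNA per cell cannot be told apart.

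Of the 32 genes, 22 reached 1 TPM in both libraries (68.8%), against 11526 of 22015 nuclear protein-coding genes (52.4%). In both libraries 14 were at 5 TPM or more and 8 at 10 TPM or more. The summed TPM was 239 in replicate 1 and 201 in replicate 2, or 220 ± 27.1 (SD, n = 2), and the 5 highest genes took 46.9% and 45.8% of it. Among genes at 1 TPM or more, the median nuclear receptor was at 9.62 and 8.21 TPM and the median protein-coding gene at 10.3 and 7.67 TPM. The oxysterol receptor Nr1h2 ranked first in both libraries, above 90.6% and 91.4% of nuclear protein-coding genes. The other leading genes were Thra, Pparg, Nr2f6, Rxrb, Ppard and Rxra, and the order of the middle ranks moved between the libraries, with Ppard at rank 4 and 11 and Esrra at rank 10 and 5.

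**Figure D1:**
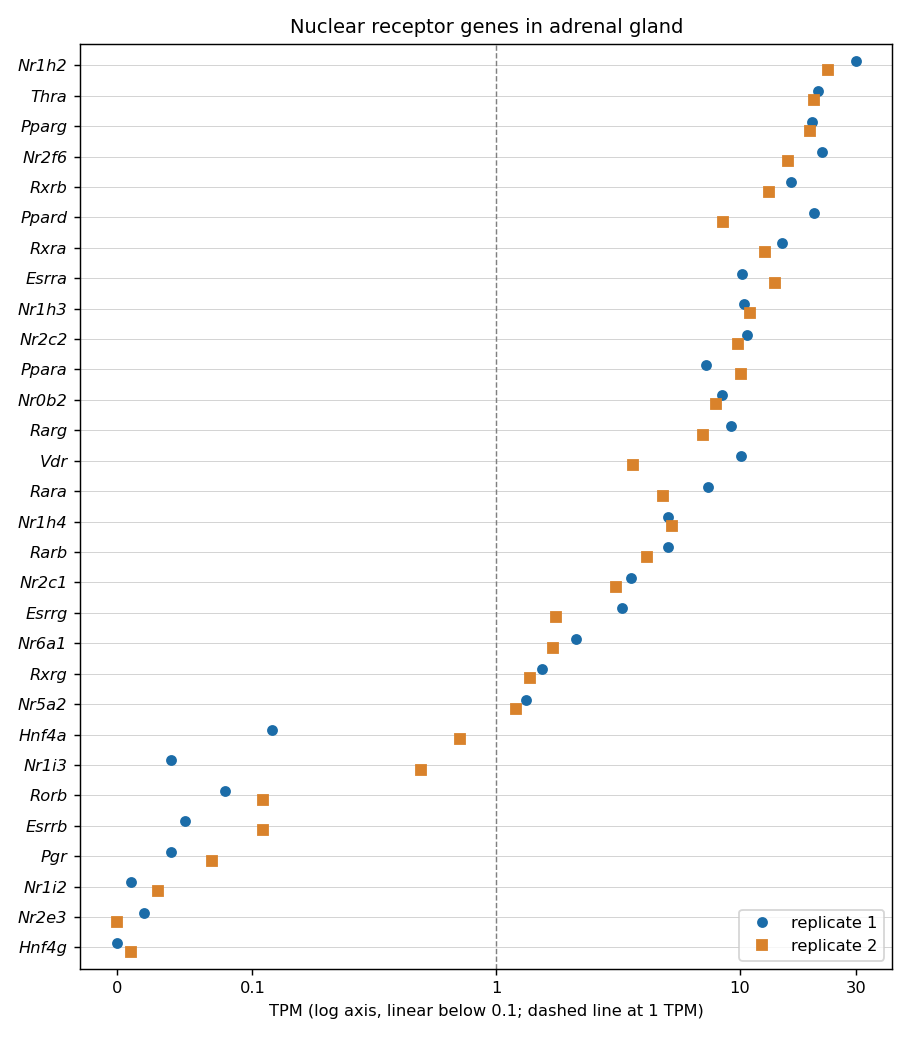
Deposited TPM of the 30 nuclear receptor genes with at least 1 count, in replicate 1 (circles) and replicate 2 (squares), on a log axis that is linear below 0.1, ordered by mean. The 22 genes right of the dashed line at 1 TPM were there in both libraries, and a gap separates them from Hnf4a and the 7 genes under it.

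Between the libraries, 23 of the 32 genes were abundant enough to test (a mean of at least 1 CPM, counts scaled to library size). The limit is on the mean of both libraries, so some genes, Hnf4a among them, met it through replicate 2 alone. Ppara and Hnf4a passed, both higher in replicate 2, and 21 did not. Passing required an adjusted p under 0.05 in a two-sided exact binomial test and at least a 2-fold ratio; 6.87% of the 14780 genes tested passed, 1.74% higher in replicate 1 and 5.13% higher in replicate 2. A share of 2 in 23 is thus near that background. The log2 ratio of replicate 1 over replicate 2 was above 0 for 6 of the 23 and below 0 for 17, with a median of -0.19 against -0.01 over all genes tested. Scaling by the added spike-in RNA in place of TMM moves every log2 ratio by 0.89 toward replicate 1, which turns the sign for 15 of the 17, so the direction of a ratio near 0 is relative to the bulk of genes. Spike-in scaling let 37.3% of all genes pass, and 5 of the 23: Rara, Ppard, Vdr and Esrrg higher in replicate 1, and Hnf4a higher in replicate 2. At a 1.5-fold limit, which 16.5% of all genes passed, Ppard, Vdr and Esrrg were added as higher in replicate 1 and Esrra as higher in replicate 2. All intervals come from the counts of the 2 libraries alone, so they cover counting error only. The reads also carry no molecular identifiers, so copies of a molecule count as separate reads.

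**Figure D2:**
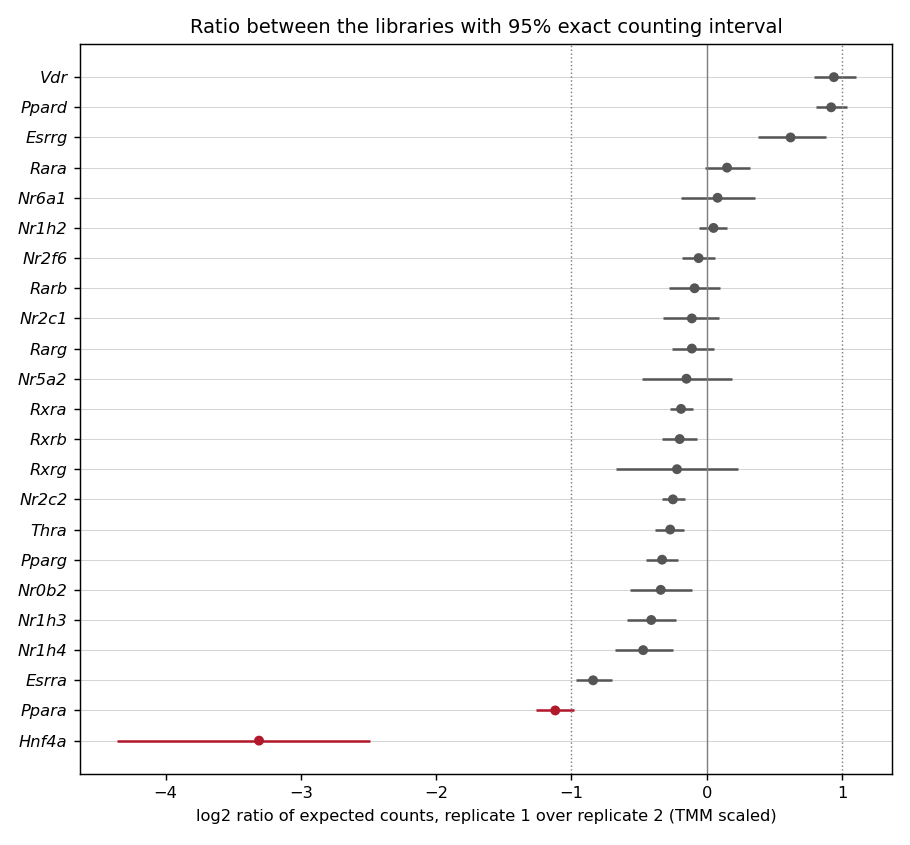
Log2 ratio of expected counts, replicate 1 over replicate 2, for the 23 nuclear receptor genes tested, with exact 95% counting intervals. Points to the right are higher in replicate 1; dotted lines mark 2-fold, and Hnf4a and Ppara, in red, are the genes that passed.

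The RXR genes, the common partners, were led by Rxrb and Rxra at nearly equal levels. Rxrb (ENSMUSG00000039656.17, chr17:34031812-34038399) was at 16.2 TPM in replicate 1 and 13.2 in replicate 2, from 995 and 938 expected counts. Rxra (ENSMUSG00000015846.14, chr2:27676440-27762957) was at 14.8 and 12.6 TPM, from 2243 and 2089 counts. Rxrg, the form known from muscle and brain, was at 1.54 and 1.37 TPM. Within the group, Rxrb held 49.7% and 48.6% of the TPM and Rxra 45.6% and 46.4%, a split that differed by about 1 point between the libraries. The order depends on length: by expected counts, Rxra, whose transcripts are longer, held 67.5% and 67.2%. The known RXR partners among the 32 genes summed to 145 and 117 TPM, or 4.45 and 4.32 times the RXR sum. Transcripts with a retained intron made up 34.7% and 29.9% of Rxrb TPM, while the coding transcript Rxra-201 (467 codons) held 84.6% and 82.5% of Rxra. Of Rxrg, 90.3% and 93.4% lay on Rxrg-202, which starts downstream and encodes 340 codons, against 463 for the longest form. A second quantification by the authors gave Rxrg-202 70.4% and 66.5%, and the gene had only 86 and 82 expected counts.

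All 3 retinoic acid receptors were present, in the order Rarg, Rara, Rarb. Rarg (ENSMUSG00000001288.15, chr15:102234938-102257517) was at 9.17 and 7.02 TPM, Rara at 7.40 and 4.84 TPM and Rarb at 5.05 and 4.15 TPM. Their shares of the group were 42.4% and 43.8% for Rarg, 34.2% and 30.2% for Rara, and 23.4% and 25.9% for Rarb, and none of the 3 passed between the libraries (log2 ratios -0.11, 0.15 and -0.09). Under spike-in scaling Rara passed, 2.06-fold higher in replicate 1. Each of these genes is known to have alternative starts that give receptors with different amino-terminal ends. For Rarg, the downstream start of Rarg-202 (447 codons) held 56.8% and 63.7% of the TPM and that of Rarg-201 (458 codons) 24.7% and 22.2%, a ratio of 2.30 and 2.87. The second transcript file, quantified separately by the authors, gave 2.38 and 3.19. For Rara, the start at 98937698 on chromosome 11 held 43.5% and 49.4% and the start at 98960412 held 46.8% and 42.6%, so the leading transcript was not the same in the 2 libraries. The second file placed 19.8% and 32.7% of Rara on another start, at 98927818, and the split is uncertain.

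Rarb (ENSMUSG00000017491.9, chr14:16430839-16819156, minus strand) is itself a textbook retinoic acid target, through a direct repeat just upstream of the start used by its beta-2 form. That form's start region held 100% and 94.9% of Rarb TPM, and Rarb-201 (448 codons) held 85.0% and 78.3% of it. In the second file the start region held 96.5% and 88.5%, but Rarb-201 only 50.9% and 43.0%. The repeat is shown because it is the element that ties this gene to its ligand; it is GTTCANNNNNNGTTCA, shown in capitals with 7 bases on each side (RefSeq, GRCm38.p6, chr14:16575506-16575535, minus strand).
Rarb repeat: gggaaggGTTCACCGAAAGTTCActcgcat
It lies 52 to 37 bases before the RefSeq start, and inside the annotated first exon of Rarb-201, whose GENCODE start is further upstream. Searched on both strands in 250-base windows before 32851 RefSeq starts, the repeat was found in 22 windows (0.067%), and of the 48 windows of the nuclear receptor genes only in that of Rarb. A match is a description of the letters and says nothing of use in this tissue. The Rarb locus overlaps Top2b on the opposite strand by 4624 bases, and the sources used here do not state whether counting used strand.

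The machinery of retinoic acid was present on both its making and breaking sides. Of 18 genes, 11 reached 1 TPM in both libraries and 12 were tested, of which 0 passed higher in replicate 1 and 3 higher in replicate 2, with a median log2 ratio of -0.08. The highest were Fabp5, a carrier of fatty acids and retinoic acid, at 31.6 and 25.5 TPM, Dhrs3, which turns retinal back to retinol, at 22.0 and 19.2, Aldh1a2, a retinal dehydrogenase that makes retinoic acid, at 23.9 and 12.9, and Aldh1a1, of the same function, at 14.8 and 12.2. Cyp26b1, which breaks down retinoic acid, was at 4.27 and 3.22 TPM, while Cyp26a1 had 0 and 1 count. The genes that passed were Rbp4, the retinol carrier of blood made largely by liver, at 10.4 and 16.5 TPM, Crabp1, a retinoic acid carrier, at 2.38 and 4.47 TPM, and Dhrs9 at 0.22 and 0.47 TPM.

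Thra, the thyroid hormone receptor alpha gene (ENSMUSG00000058756.13, chr11:98740638-98769006), was at 20.9 and 20.1 TPM from 1529 and 1514 counts. Its TMM-scaled ratio was 1.21-fold higher in replicate 2 (95% interval 1.13 to 1.30) and did not reach 2-fold. The gene is known to make, by alternative splicing of its end, the hormone-binding form alpha-1 and the form alpha-2 that does not bind hormone. Thra-201 (492 codons, the alpha-2 form) held 59.5% and 43.0% of Thra TPM and Thra-202 (410 codons, the alpha-1 form) 22.4% and 34.3%. The ratio of Thra-201 to Thra-202 was thus 2.65 in replicate 1 and 1.25 in replicate 2. Another coding transcript, Thra-203 (413 codons), held 12.5% and 6.5%. It ends beyond the end of Thra-202 and is on neither side of the ratio, which is therefore of 2 transcripts and not of all alpha-2 and alpha-1 RNA. The second file gave a ratio of Thra-201 to Thra-202 of 2.60 and 1.18, so both quantifications show Thra-201 ahead, by more in replicate 1. The alpha-2 end lies where Thra overlaps Nr1d1, a clock receptor on the opposite strand, by 1075 bases. Nr1d1 itself was at 35.2 and 31.0 TPM, and its part in the alpha-2 share was not tested. Thrb, the other thyroid hormone receptor gene, was at 8.00 and 9.10 TPM.

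Of 10 genes for thyroid hormone handling and response, 8 were tested and 0 passed in either direction (median log2 ratio 0.31). They included Me1, malic enzyme, at 617 and 320 TPM, Thrsp, a lipogenic protein named for its response to the hormone, at 382 and 322, and Klf9, a transcription factor, at 26.5 and 15.7. Of the deiodinases, Dio2, which activates the hormone, was at 2.46 and 3.33 TPM, and Dio1 and Dio3 were under 0.5 TPM in both libraries.

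**Figure D3:**
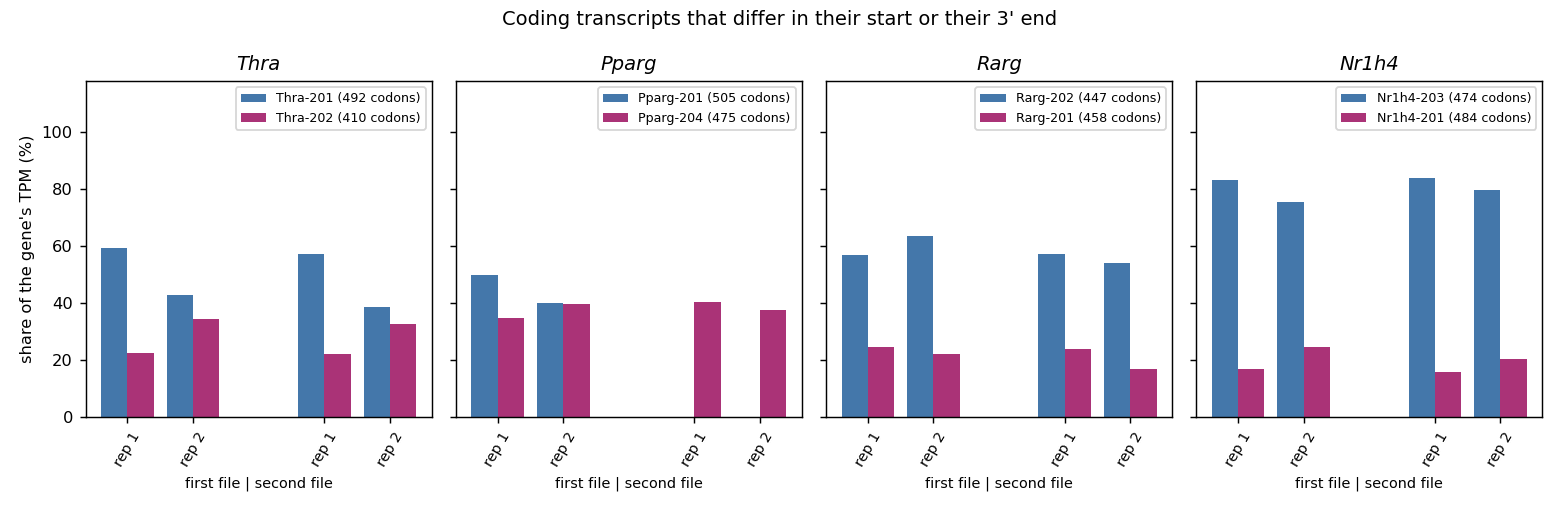
Share of a gene's TPM in 2 of its coding transcripts that differ in start or end, for Thra, Pparg, Rarg and Nr1h4, in replicate 1 and replicate 2 of the first and the second transcript file. The order held in both files for Thra, Rarg and Nr1h4; Pparg-201 took 50.0% and 40.1% in the first file and 0.0% in the second.

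Vdr, the vitamin D receptor (ENSMUSG00000022479.15, chr15:97854425-97910630), was at 10.1 TPM in replicate 1 and 3.64 in replicate 2, from 1170 and 498 counts. The ratio was 1.92-fold higher in replicate 1 (95% interval 1.73 to 2.14), just short of the 2-fold limit, with an adjusted p of 2.14e-35 by the exact binomial test. Under spike-in scaling it was 3.57-fold higher in replicate 1 and passed. Vdr-201, the full-length form of 422 codons, held 75.3% and 81.3% of it in the first transcript file. The second file gave that form 49.3% and 48.8% and placed 34.8% and 42.3% on the short Vdr-206 (21 codons). Vdr-206 rested there on only 22 and 12 estimated counts, against 1308 and 577 for Vdr-201. Of 7 vitamin D target genes, 1 was abundant enough to test: Atp2b1, a calcium pump, at 17.5 and 13.0 TPM. Cyp24a1, the enzyme that breaks down vitamin D, and S100g, an intestinal calcium carrier, had 0 counts in both libraries.

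The xenobiotic receptors related to Vdr were scarce. Nr1i2 (PXR) had 1 and 3 counts, and Nr1i3 (CAR) had 4 and 42 counts, at 0.04 and 0.49 TPM, under the limit for testing. With no lower limit, Nr1i3 passed as 11.5-fold higher in replicate 2 (95% interval 4.65 to 49.2). Of 14 genes known as their targets, 11 were tested, of which 1 passed higher in replicate 1 and 5 higher in replicate 2 (median log2 ratio -0.14). Alas1, the entry enzyme of heme synthesis, was at 952 and 184 TPM, 3.89-fold higher in replicate 1. The highest others, Abcb1b, a drug efflux pump, at 726 and 471 TPM, Gstm1 at 128 and 91.5, and Por, the electron donor of microsomal P450 enzymes, at 98.0 and 58.1, did not pass. The 5 higher in replicate 2 are genes of liver: Cyp2c29 at 0.20 and 5.36 TPM, Cyp3a11 at 0.58 and 8.94, Ugt1a1 at 0.22 and 1.09, Abcc2 at 0.09 and 1.37, and Cyp2b10 at 1.18 and 2.85. All 6 hepatocyte markers also passed higher in replicate 2, Alb at 7.24 and 51.4 TPM among them, and their part in these values was not tested.

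The fatty acid receptors (PPAR) were all above 5 TPM but did not keep their order. Pparg, the master regulator of fat cells (ENSMUSG00000000440.12, chr6:115360951-115490399), was at 19.7 TPM in replicate 1 and 19.3 in replicate 2, from 1126 and 1158 counts. Its TMM-scaled ratio was 1.26-fold higher in replicate 2 (95% interval 1.16 to 1.36) and did not reach 2-fold. Ppard, a widely expressed form (ENSMUSG00000002250.16, chr17:28232700-28301474), was at 20.1 and 8.49 TPM from 1941 and 838 counts, 1.90-fold higher in replicate 1 (95% interval 1.75 to 2.06), short of the 2-fold limit. Ppara, the receptor that drives fatty acid oxidation (ENSMUSG00000022383.13, chr15:85734983-85802819), was at 7.22 and 10.1 TPM from 635 and 1132 counts. It was 2.18-fold higher in replicate 2 (95% interval 1.97 to 2.40, adjusted p = 1.46e-56 by the exact binomial test). Ppard thus exceeded Ppara 2.79 times in replicate 1 and stood at 0.839 of it in replicate 2, and the second file gave 3.27 and 0.890. Under spike-in scaling the log2 ratio of Ppara was -0.23 and it no longer passed, while Ppard did.

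**Figure D4:**
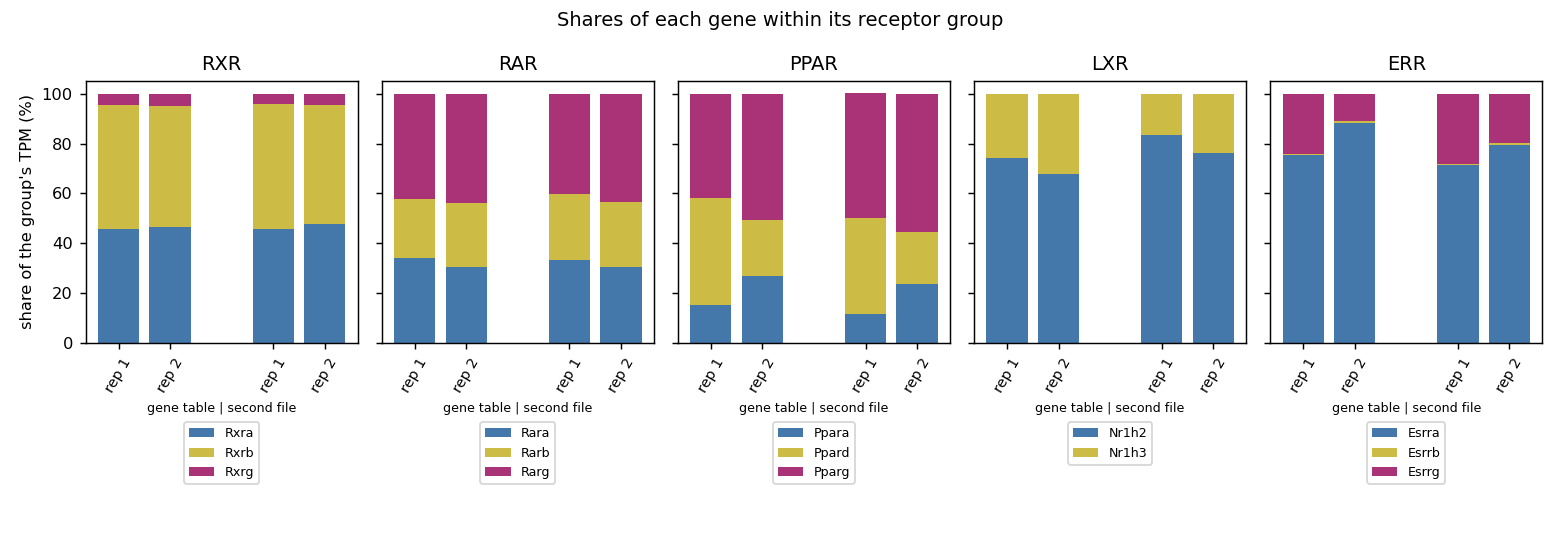
Share of each gene in the summed TPM of its receptor group, for RXR, RAR, PPAR, LXR and ERR, in replicate 1 and replicate 2 of the gene table and of the second transcript file. Rxrb held between 48.0% and 50.1% of RXR in all 4 bars, while Ppara held 15.3% and 26.7% and Ppard 42.7% and 22.4% in the gene table.

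Of 26 genes known as Ppara targets, 21 reached 1 TPM in both libraries and 23 were tested, of which 0 passed higher in replicate 1 and 7 higher in replicate 2. Their ratio was below 0 for 21 of 23, with a median log2 ratio of -0.51, and 0.39 under spike-in scaling. The highest, the mitochondrial oxidation enzymes Hadhb at 250 and 264 TPM, Acadm at 227 and 211, Acadvl at 164 and 182 and Hadha at 153 and 143, did not pass. Among those that did were Cpt1b, the muscle and brown fat form of the carnitine transferase, at 25.6 and 45.2 TPM, and Acot1, an acyl-CoA thioesterase, at 1.5 and 2.35. Fabp1, the liver fatty acid carrier, had the largest ratio of the list, 22.7-fold, at 0.56 and 9.98 TPM. Another 3 lay between 2.02-fold and 2.16-fold. Of the brown fat markers, Ucp1 was at 156 and 302 TPM, Cidea at 120 and 179 and Elovl3 at 1.85 and 11.2, with 2 of 3 passing higher in replicate 2. Their part and that of liver RNA in the Ppara and target values was not tested.

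Pparg is known for a fat-restricted form, Pparg2, with its own promoter and 30 more codons than Pparg1, which starts upstream and is found more widely. In the first transcript file Pparg-201, the Pparg2 form of 505 codons, held 50.0% and 40.1% of the gene's TPM from 581 and 501 counts. The Pparg1 start of Pparg-204 and its neighbours (475 codons) held 41.1% and 49.7%, and the start of Pparg-202 7.1% and 6.9%. The second file gave 0.0% to Pparg-201 in both libraries and 71.9% and 69.8% to the start of Pparg-204. The same reads thus gave opposite accounts of Pparg2, and its level cannot be told from these files. The sequences before the 2 starts are shown because this choice separates the forms; both are on the plus strand of GRCm38.p6, from RefSeq, without bases that lie in an annotated exon. They are chr6:115362099-115362291 for Pparg1 and chr6:115421816-115422065 for Pparg2.
Pparg1 upstream: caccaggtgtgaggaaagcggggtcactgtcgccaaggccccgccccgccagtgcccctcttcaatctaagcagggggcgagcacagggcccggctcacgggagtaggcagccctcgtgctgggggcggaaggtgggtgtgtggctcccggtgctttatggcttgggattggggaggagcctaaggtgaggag
Pparg2 upstream: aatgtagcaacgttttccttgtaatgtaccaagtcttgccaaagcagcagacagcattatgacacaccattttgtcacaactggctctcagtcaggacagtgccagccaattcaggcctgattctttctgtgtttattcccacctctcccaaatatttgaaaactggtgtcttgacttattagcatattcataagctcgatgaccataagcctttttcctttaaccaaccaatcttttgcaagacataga
The full window before the Pparg1 start holds AGGTCA 9 to 4 bases before that start, among the exon bases left out of the printed stretch. Another Pparg window, before the RefSeq start at 115361144, holds it 28 to 23 bases before. Neither printed stretch holds it on either strand. The motif was found in 14.0% of all windows and in 8 of the 48 nuclear receptor windows, 2 of them of Pparg.

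Of 16 genes known as Pparg targets in fat, all 16 were tested, of which 0 passed higher in replicate 1 and 1, Ucp1, higher in replicate 2 (median log2 ratio -0.38). Fabp4, the fat cell fatty acid carrier, was at 1082 and 1038 TPM, Cfd, adipsin, at 448 and 256, Gpd1, glycerol phosphate dehydrogenase, at 314 and 395, and Pnpla2, the fat triglyceride lipase, at 265 and 267. Of the adipocyte markers, 0 of 6 passed in either direction.

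The oxysterol receptors (LXR), which sense cholesterol derivatives, were led by the widely expressed Nr1h2 (LXR beta; ENSMUSG00000060601.13, chr7:44549616-44553951, minus strand) at 29.7 and 23.0 TPM from 1631 and 1292 counts. Nr1h3 (LXR alpha), known from liver, fat and macrophages, was at 10.4 and 11.0 TPM, so Nr1h2 exceeded it 2.87 and 2.09 times. The second file gave 5.03 and 3.18 times. In the first file the noncoding Nr1h3-207 held 25.5% and 32.7% of Nr1h3 TPM, from only 26 and 39 counts. Nr1h2 was even between the libraries, with a log2 ratio of 0.05 (95% interval -0.06 to 0.15). Macrophage markers summed to 122 and 72.9 TPM. Of 15 LXR target genes, 13 reached 1 TPM in both libraries and were tested, and 0 passed in either direction (median log2 ratio -0.08). They included some of the most abundant genes described here: the desaturase Scd1 at 1275 and 1350 TPM, the fatty acid synthase Fasn at 786 and 999, Apoe at 345 and 285, and Scd2 at 300 and 151. The cholesterol exporter Abca1 was at 44.8 and 34.5 TPM and the lipogenic factor Srebf1 at 54.6 and 46.5, while Abcg5 and Abcg8, sterol exporters of liver and gut, were under 0.2 TPM.

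The bile acid receptor Nr1h4 (FXR; ENSMUSG00000047638.15, chr10:89454234-89533585, minus strand) was present at 5.08 and 5.24 TPM from 342 and 387 counts, a level above 62.2% and 66.6% of nuclear protein-coding genes. The mouse gene has an upstream and a downstream start. The upstream start, that of Nr1h4-203 (474 codons), held 83.1% and 75.6% of the TPM, and the downstream start of Nr1h4-201 and Nr1h4-202 (484 and 488 codons) 16.9% and 24.4%. The second file gave 84.1% and 79.7% for the upstream start. Of 9 FXR target genes of liver and gut, 4 were tested, of which 0 passed higher in replicate 1 and 2 higher in replicate 2. These were Slc27a5, a bile acid ligase, at 0.06 and 1.11 TPM, and Abcb11, the bile salt pump, at 0.08 and 0.56 TPM. From 3 and 85 counts for Slc27a5 and 13 and 75 for Abcb11, both met the limit for testing only through replicate 2. The hepatocyte markers, at a sum of 13.7 and 116 TPM, passed higher in replicate 2 in 6 of 6 cases, and their part in these values was not tested. Cyp7a1, the rate-limiting enzyme of bile acid synthesis, had 0 and 11 counts, and Fgf15, the gut hormone, had 0 in both libraries.

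Nr0b2 (SHP; ENSMUSG00000037583.2, chr4:133553376-133556536), a receptor without a DNA-binding domain that represses others and is a textbook FXR target in liver, was at 8.41 and 7.93 TPM from 307 and 318 counts. It exceeded Nr1h4 by 1.66 and 1.51 times, and its log2 ratio was -0.34 (95% interval -0.57 to -0.11). Its promoter is also known to be bound by the NR5A receptors, the family of the adrenal regulator Nr5a1, which was at 160 and 52.6 TPM, and of Nr5a2. The 250 bases before its start (RefSeq, GRCm38.p6, chr4:133553126-133553375, plus strand) are shown with each TCAAGG, the core letters that NR5A receptors read, in capitals.
Nr0b2 upstream: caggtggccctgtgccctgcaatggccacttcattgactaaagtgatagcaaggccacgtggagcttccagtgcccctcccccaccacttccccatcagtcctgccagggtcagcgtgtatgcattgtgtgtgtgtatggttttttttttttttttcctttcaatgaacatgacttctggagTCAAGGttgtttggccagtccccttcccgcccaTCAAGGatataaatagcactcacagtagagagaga
TCAAGG occurs there 2 times, at 68 to 63 and 35 to 30 bases before the start, and on either strand in 12.5% of all windows and in 5 of the 48 nuclear receptor windows. AGGTCA was not found in this window. Nr5a1 itself passed as 2.27-fold higher in replicate 1.

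Hnf4a, a regulator of liver, kidney, gut and pancreatic islets (ENSMUSG00000017950.16, chr2:163506808-163572910), was at 0.12 TPM in replicate 1 and 0.71 in replicate 2, from 12 and 101 counts. It was 9.92-fold higher in replicate 2 (95% interval 5.63 to 20.6, adjusted p = 1.03e-21 by the exact binomial test), the largest ratio of the 23 tested genes, and passed under spike-in scaling too. Its mean of 1.84 CPM met the limit of 1 CPM only through replicate 2, where it is high. Its place among the tested genes thus rests on that library. The gene has an upstream promoter, P2, known for islets, and a promoter P1 known for adult liver and kidney. Transcripts from the P1 start held 11.2 and 99.6 counts, while that from the P2 start held 0.0 and 1.4. The second file placed 14.2 and 114 counts on P1 and 0.0 on P2 in both. The sequences before both starts are shown because they separate the forms (RefSeq, GRCm38.p6, plus strand, without annotated exon bases): chr2:163506607-163506807 for P2 and chr2:163546943-163547154 for P1. Neither stretch holds AGGTCA on either strand, so both are in lower case.
Hnf4a P2 upstream: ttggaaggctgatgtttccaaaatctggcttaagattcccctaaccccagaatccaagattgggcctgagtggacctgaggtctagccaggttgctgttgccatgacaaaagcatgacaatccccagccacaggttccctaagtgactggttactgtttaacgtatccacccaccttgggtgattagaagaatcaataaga
Hnf4a P1 upstream: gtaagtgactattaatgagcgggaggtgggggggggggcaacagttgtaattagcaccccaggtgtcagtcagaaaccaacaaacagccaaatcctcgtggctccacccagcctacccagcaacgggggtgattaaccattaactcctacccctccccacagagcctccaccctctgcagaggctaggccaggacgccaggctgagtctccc

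Of 10 genes known as Hnf4a targets, 6 were tested, of which 0 passed higher in replicate 1 and 5 higher in replicate 2, with a median log2 ratio of -3.41. They were the apolipoprotein genes Apoa2 at 1.93 and 25.9 TPM, Apob at 0.37 and 6.60 and Apoc3 at 3.78 and 7.28, the thyroxine carrier Ttr at 0.99 and 11.7, and the protease inhibitor Serpina1a at 1.29 and 4.94. Hepatocyte markers summed to 13.7 TPM in replicate 1 and 116 in replicate 2 with 6 of 6 passing, acinar markers to 0.20 and 6600 with 6 of 6, and islet markers to 0.05 and 87.0 with 3 of 3 tested. Apoa2, Ttr and Serpina1a are in both the hepatocyte and the target list. In replicate 1 the acinar genes Pnlip, Cpa1 and Rbpjl had 0 counts and Cela2a, Ctrb1 and Cel 2, 3 and 2 counts. Of the islet genes, Ins1, Ins2, Gcg and Ppy had 0 counts there and Sst 1 count. The 6 hepatocyte markers had between 26 counts (Apoa2) and 495 counts (Alb) there. Kidney tubule markers summed to 0.0 and 0.04 TPM, and 0 of 3 were abundant enough to test. The part of these tissues in the Hnf4a ratio was not tested. Hnf4g, its relative in gut and pancreas, had 0 and 1 count.

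The estrogen-related receptors (ERR), orphan receptors that drive mitochondrial genes, were led by Esrra (ENSMUSG00000024955.14, chr19:6910977-6921813, minus strand) at 10.1 and 13.9 TPM from 761 and 1112 counts. Esrrg was at 3.27 and 1.75 TPM from 379 and 201 counts, and Esrrb had 4 and 10 counts. The log2 ratios had opposite signs, -0.84 for Esrra (95% interval -0.97 to -0.70) and 0.62 for Esrrg (0.38 to 0.88), and neither reached 2-fold. Esrra therefore exceeded Esrrg 3.10 times in replicate 1 and 7.93 times in replicate 2, and the second file gave 2.52 and 3.97. Under spike-in scaling the ratio of Esrra was 0.06, even between the libraries, while Esrrg passed at 1.52. A single transcript, Esrra-201 (422 codons), held 94.5% and 88.9% of Esrra. Of 11 mitochondrial ERR target genes, 11 were tested, of which 0 passed higher in replicate 1 and 1 higher in replicate 2, with a median log2 ratio of -0.19. Atp5b, an ATP synthase subunit, was at 888 and 809 TPM, Uqcrc1 at 191 and 172 and Mdh1 at 155 and 112. The gene that passed was Perm1, a regulator of muscle energy genes, at 0.54 and 1.62 TPM.

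Among the remaining orphans, Nr2f6 (EAR2), a repressor related to the COUP-TF genes (ENSMUSG00000002393.14, chr8:71374123-71381960), was at 21.7 and 15.7 TPM with a log2 ratio of -0.06 (95% interval -0.18 to 0.06). Nr2f2, the COUP-TF of stroma and vessels, was higher at 38.7 and 21.9 TPM. The testicular receptors, which bind AGGTCA repeats without a firmly known ligand, were Nr2c2 (TR4) at 10.7 and 9.77 TPM and Nr2c1 (TR2) at 3.56 and 3.11 TPM, a ratio of 3.00 and 3.14. Nr2c2 overlaps Mrps25 on the opposite strand by 4770 bases. Of the 32 genes, only Nr2c2 had gene counts that were not whole within 0.01. Part of its reads was thus shared with other genes. Nr6a1 (GCNF), known from germ cells and embryos, was at 2.13 and 1.71 TPM, and the share of its TPM on coding transcripts was 48.1% in replicate 1 and 39.5% in replicate 2. Nr5a2 (LRH-1), of liver, gut and ovary, was at 1.33 and 1.20 TPM from 158 and 143 counts, with a log2 ratio of -0.15 (95% interval -0.48 to 0.19), while the related Nr5a1 was at 160 and 52.6 TPM.

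The genes at the bottom were Rorb, a brain and retina receptor, with 18 and 29 counts, Pgr, the progesterone receptor, with 6 and 15, and Nr2e3, a photoreceptor factor, with 1 and 0. Nr2e1, a brain factor, and Esr2, estrogen receptor beta, had 0 counts in both libraries of the gene table, where a count of 0 allows up to 3. The second transcript file gave Esr2 7.7 and 13.0 estimated counts and Nr2e1 3.0 and 2.0, so Esr2 was not at 0 in both quantifications. Esr2 overlaps the pseudogene Gm7862 on the same strand by 292 bases. Gm7862 was at 4.34 and 2.06 TPM in the gene table, and its part in the Esr2 counts was not tested. The related Esr1, estrogen receptor alpha, was at 4.52 and 2.49 TPM.

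The cofactors that receptors recruit were present throughout. All 15 coactivator genes and all 9 corepressor genes reached 1 TPM in both libraries. Of the coactivators, 0 passed higher in replicate 1 and 1 higher in replicate 2 (median log2 ratio 0.12). The highest were Prmt1 at 79.2 and 44.5 TPM, Ncoa4 at 58.6 and 44.6, Ep300 at 21.1 and 14.7, and Kat2b at 19.5 and 14.0. The gene that passed was Ppargc1b, a partner of ERR and PPAR receptors, at 2.33 and 5.80 TPM, 2.82-fold higher in replicate 2. Its relative Ppargc1a was at 2.31 and 1.76 TPM from 175 and 214 counts. By TMM-scaled counts Ppargc1a was also higher in replicate 2, by 1.49-fold, and did not pass. Of the corepressors, 0 passed in either direction (median log2 ratio -0.02), with Ncor1 at 61.9 and 42.2 TPM, Nrip1 at 23.0 and 22.1 and Tbl1xr1 at 21.2 and 24.0.

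**Figure D5:**
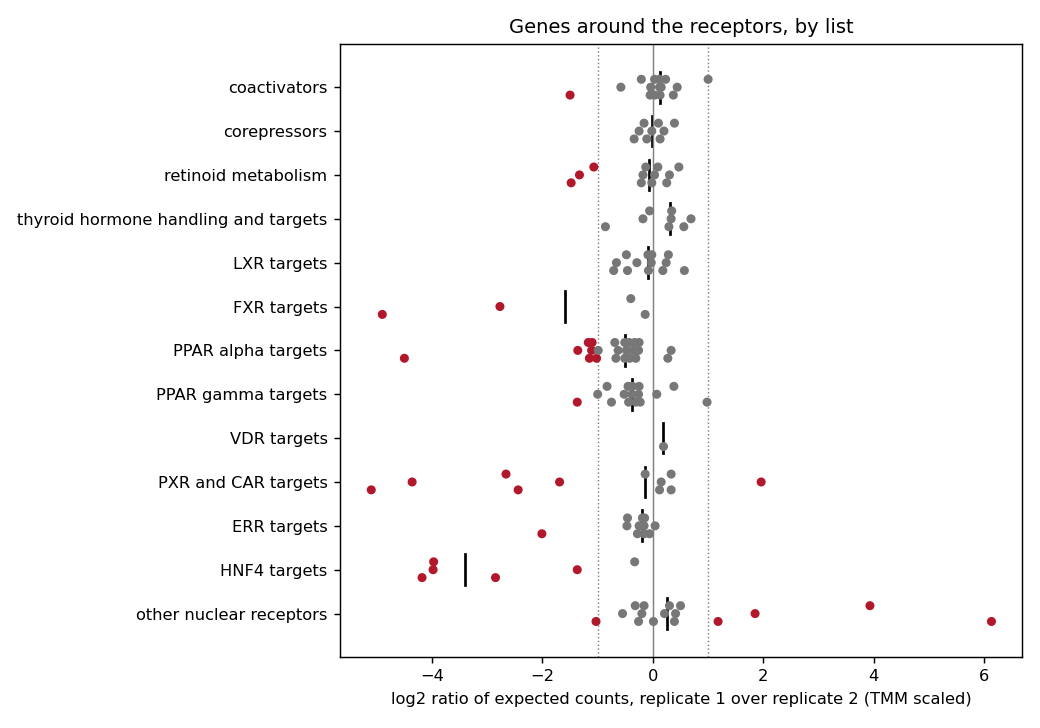
Log2 ratio of expected counts, replicate 1 over replicate 2, of the genes tested in 13 lists of cofactors, ligand handling, targets and other receptors; red points passed, bars are medians and dotted lines mark 2-fold. HNF4, FXR, PPAR alpha, and PXR and CAR targets have genes far to the left. The points furthest right are Nr4a1 and Nr4a2, followed by Alas1 and Nr4a3.

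Of 16 nuclear receptors outside the 32 genes, all 16 were tested, of which 4 passed higher in replicate 1 and 1 higher in replicate 2, with a median log2 ratio of 0.25. Nr4a1, an early-response receptor, was at 350 and 4.09 TPM, 70.1-fold higher in replicate 1, Nr4a2 was 15.3-fold higher and Nr4a3 3.60-fold higher. Nr3c2, the mineralocorticoid receptor, was at 1.67 and 2.95 TPM, 2.04-fold higher in replicate 2.

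At the transcript level, 20 of the 23 genes named with full values had the same leading transcript in both libraries of the first file, and 14 had the same one in both libraries and both files. Genes with a single dominant form (Esrra-201, Rxra-201, Nr1h4-203, Nr0b2-201) were among the 14, while Nr1h3, Nr2c1, Rxrb, Nr1h2 and Pparg had another leading transcript in the second file. In the first file, retained-intron transcripts of these 23 genes were highest for Rxrb, for Ppard at 20.2% and 32.4%, and for Nr1h2 at 15.2% and 19.5%. The second file gave Rxrb 33.6% and 32.8% and Nr1h2 11.9% and 22.8%, but Ppard only 7.5% and 10.4%. Of the 32 genes, 16 overlap another annotated gene, 13 of them on the opposite strand.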

How the data were processed

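Total RNA of adrenal gland was sequenced in 2 libraries of 1 group, with libraries of a directional kit and ERCC spike-in RNA, per the labels' protocols. The genome is mm10, per the labels, with GENCODE M21 identifiers. In the column layout of RSEM, the authors deposited expected counts and TPM by gene and by transcript, with each transcript's percent of its gene. A second transcript file, in the layout of kallisto, has estimated counts and TPM that the authors deposited, and was summed here by gene. The sources used here give no program versions. The deposited TPM include spike-ins and noncoding RNA. Entries that name no gene took 0.843% and 1.5% of counts in replicates 1 and 2 and were left out.

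Expected counts were rounded. TMM factors (edgeR 4.0.16, R 4.3.3) were 1.02 and 0.982. Genes with a mean of at least 1 CPM entered a two-sided exact binomial test with Benjamini-Hochberg adjustment, and 0.5 was added to counts for log2 ratios. The test was tried on simulated counts with counting error alone, as the test itself assumes, so that trial says nothing of other spread. Shares were computed within a library. RefSeq promoter windows matched 30 of the 32 genes (48 windows). Alternatives were DESeq2 1.42.0 size factors, total counts, spike-ins, filters, thresholds, the second file and rescaled TPM; the rescaled second file was chosen after seeing the data. Statistics used scipy 1.17.1 and pandas 2.3.3 under Python 3.11.15. Genes and lists were chosen with earlier results of these data known. Full values are given for members at a mean of 5 TPM, tested or passing, and up to 4 list genes by level and 4 passing by ratio. Other list genes named were chosen after their values were seen. Some list genes count in list totals and are not reported here by gene.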

Additional observations from a re-analysis of the deposited data

How the results depend on the processing

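The count of 2 passing nuclear receptor genes was 5 with spike-in scaling (Rara, Ppard, Vdr and Esrrg gained, Ppara lost). It was 6 at a 1.5-fold threshold, where Ppard, Vdr, Esrrg and Esrra are added and 16.5% of all genes pass. With no filter or with nuclear protein-coding genes only it was 3, as both add Nr1i3. With a mean of at least 5 CPM it was 1, as Hnf4a drops out. For the filter and coding-gene settings no share of all genes is given, so those counts cannot be set against a background. Spike-in scaling, with 37.3% of all genes passing, moved the median log2 ratio of the tested genes to 0.71 and the count of pathway genes passing to 45, against 26. It also turned the sign of the log2 ratio of 15 genes, none of which passed in either scaling: Thra 0.62, Rarb 0.80, Rarg 0.78, Pparg 0.56, Nr1h3 0.48, Nr1h4 0.43, Rxra 0.71, Rxrb 0.69, Rxrg 0.67, Nr2c1 0.78, Nr2c2 0.65, Nr2f6 0.83, Esrra 0.06, Nr5a2 0.75 and Nr0b2 0.55. Summed TPM, 220 as deposited, was 816 rescaled over nuclear protein-coding genes, 462 in the second transcript file and 787 in that file rescaled. The second file moved the share of Rarg in its group to 41.9%, of Pparg to 52.9% and of Nr1h2 to 79.8%, and the median share of the leading transcript to 49.0%, against 68.3%. Expected counts in place of TPM moved the shares of Rarg to 39.1%, Pparg to 33.7%, Rxrb to 30.1% and Nr2c2 to 85.0%. From a single library the median leading share was 63.6% to 65.6%. The causes were not tested. DESeq2 size factors and total counts moved no call among the 32 genes. No paired analysis was possible because there is 1 group. Depth limits the genes under 1 TPM, where a few counts set the value.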
